A study of Homo sapiens with 8 samples.

Results

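Collagen chain genes were examined in MP38, an established human uveal melanoma (UM) cell line, after 24 h of treatment with epigenetic inhibitors. They were chosen by symbol alone, as the rows of the count table named COL, a type number, A and a chain number, and 44 of 35238 symbols met this rule. MP38 is BAP1-mutant, and bulk RNA was sequenced from separate wells of this single line, 2 libraries in each of 4 groups: a control in 0.1% DMSO, romidepsin at 40 nM, quisinostat at 40 nM and mivebresib at 1200 nM, all 3 drugs in 0.1% DMSO as well. The first 2 drugs are inhibitors of histone deacetylases (HDAC), enzymes that strip acetyl groups from histones, while mivebresib is a BET inhibitor and keeps BET proteins off acetylated histones. The comparisons ask which collagen genes each inhibitor moved away from the control, and where the inhibitors differed from one another. Because each group is a pair of wells of 1 line, p-values measure the spread between wells and not between tumors.

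Collagens are extracellular matrix proteins whose chains wind around each other into helical rods. Each chain is hydroxylated and folded in the endoplasmic reticulum, and most collagens are then secreted, trimmed and crosslinked. The family falls into classes by what the rods build: fibrils (types I, II, V and XI among others), the sheet-like network of basement membranes (type IV), beaded filaments (type VI), FACIT collagens that sit on the surface of fibrils (types IX, XII and XIV among others), transmembrane collagens (types XIII and XXIII among others) and the multiplexins of basement membranes (types XV and XVIII). Type IV chains assemble in fixed sets, COL4A1 with COL4A2 in nearly all basement membranes, COL4A3 with COL4A4 and COL4A5 in a few specialised ones including those of the eye and kidney, and COL4A5 with COL4A6 in others. Melanocytes of the uvea lie in a collagen-rich stroma, and UM cells can lay down matrix of their own.

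Total counts ran from 28483235 to 29359024 per library, and levels are given as CPM, the counts of a gene scaled to a common library size, after TMM scaling. Of the 8 melanocytic markers examined, MLANA, PMEL, TYRP1, MITF and SOX10 were abundant in every library, TYR had 42 to 111 counts and S100B 6 to 14, while DCT had 0 to 5. The control libraries stood apart from each other more than those of any drug group, with a chi-square per degree of freedom of 58.1 between them against 9.52 to 9.79 in the drug groups. This touched collagen genes directly: all 15 members with at least 100 counts over the control pair were higher in control replicate 2, with a median ratio of 1.48, whereas over the 11679 genes at that level the median ratio was 0.995 and 49.1% were higher in replicate 2. Results that rest on 1 control library are therefore given with and without it.

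In the control, a few basement membrane, filament and fibril-associated chains made up most collagen counts. COL18A1, the source of endostatin, accounted for 27.0% of collagen CPM, COL4A2 for 17.1%, COL6A2 for 11.2%, COL9A3 for 10.4%, COL6A1 for 8.8% and COL12A1 for 8.01%. With COL4A5 and COL4A1 these 8 genes held 90.1%. Per kilobase of annotated exon, COL18A1 also came first at 14.4 CPM per kb, followed by COL9A3 at 9.78, COL6A2 at 9.47, COL6A1 at 7.51 and COL4A2 at 4.03. These lengths join the exons of all annotated transcripts of a gene, 19293 bases for COL4A2. Levels and ranks per kb depend on that choice. The fibrillar chain COL1A1, which dominates in fibroblasts, was at 0.156 CPM per kb and 17th in that order.

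Of the 44 members, 29 had enough counts to be tested, and the other 15 never exceeded 16 counts in a library. In 20 of the tested members every group had at least 10 counts in both libraries, and 6 reached this in at most 1 group. A gene that passed the filter only through the group in which it was high had to differ, so the counts below describe the tested members and are no evidence about the family. A gene is said to have risen or fallen where the quasi-likelihood test of edgeR gave an adjusted p below 0.05 after Benjamini-Hochberg adjustment over all 15085 tested genes. The study's added threshold, a log2 fold change (FC) beyond 1.5 in either direction, gives the genes described as past both thresholds.

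**Figure D1:**
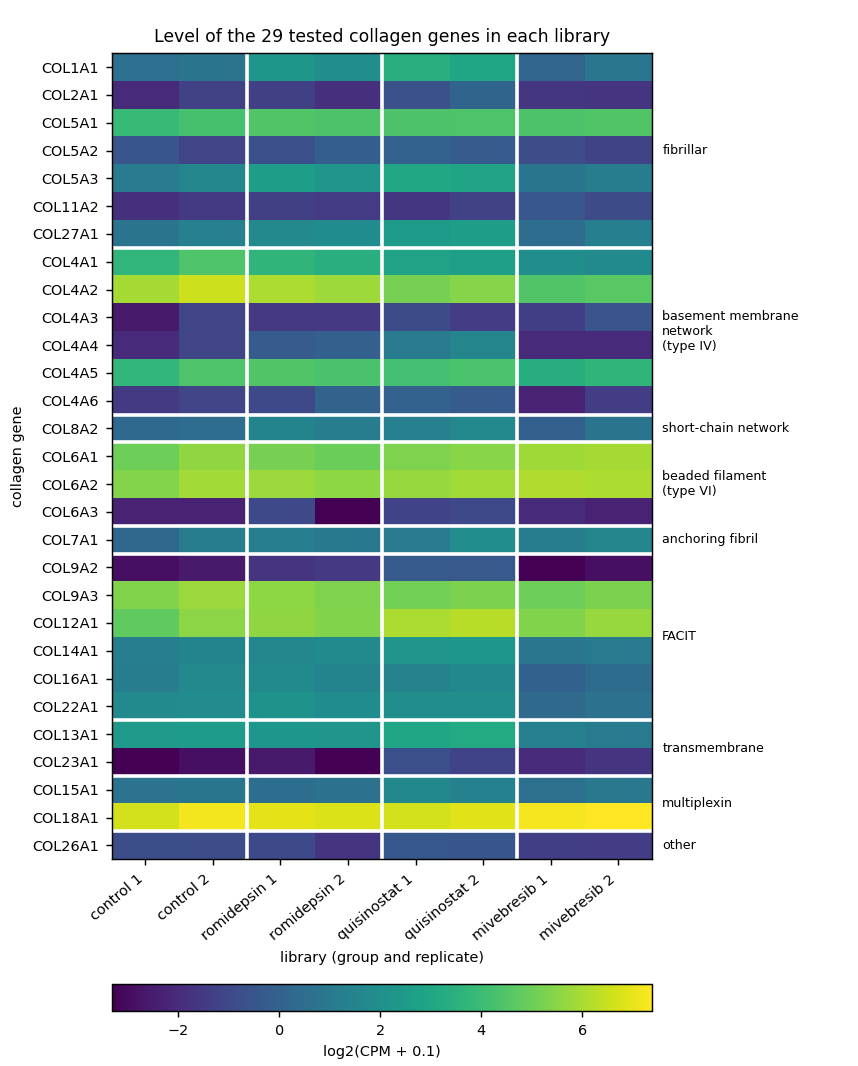
Level of the 29 tested collagen genes (rows, grouped by class) in the 8 libraries (columns), coloured by log2(CPM + 0.1). COL18A1 is bright in every library at 99.1 CPM or more, COL4A1 and COL4A2 darken from control to mivebresib, and COL1A1, COL4A4 and COL9A2 are brightest with quisinostat.

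Quisinostat moved the most collagen genes, mostly upward. With mivebresib more fell than rose, a balance that turned without control replicate 2 (7 rose and 5 fell) and was level with limma-voom (5 and 5). With quisinostat, 14 of 29 tested members rose (48.3%) and 2 fell (6.9%), against 28.0% and 25.1% of all tested genes. With romidepsin, 4 rose (13.8%) and 0 fell, against 15.2% and 15.8% of all tested genes. With mivebresib, 3 rose (10.3%) and 6 fell (20.7%), against 22.2% and 24.1%. Both of these member shares were below those over all tested genes, of which more fell than rose as well. The median log2 FC of the tested members was 0.74 with quisinostat, 0.29 with romidepsin and -0.15 with mivebresib, where the medians over all tested genes were -0.0036, -0.012 and 0.0067. The 3 drug comparisons share the control libraries.

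Past both thresholds, quisinostat raised 7 members (COL1A1, COL2A1, COL4A4, COL5A3, COL9A2, COL23A1 and COL27A1) and lowered 0, against 11.2% and 1.03% of all tested genes. Of these, COL2A1, COL9A2 and COL23A1 reached 10 counts in both libraries with quisinostat alone. They passed the filter through the group in which they were high, so the limit given above applies to their rises. Romidepsin raised 2 (COL1A1 and COL4A4) and lowered 0, against 3.77% and 0.312%. Mivebresib raised 0 and lowered 2 (COL4A1 and COL4A2), against 3.96% and 4.36%. For the counts of 0 in edgeR, the number of members at an unadjusted p below 0.05 was 1 for any fall with romidepsin (COL4A1), 0 for falls past the fold threshold with romidepsin or quisinostat, and 1 for rises past it with mivebresib (COL23A1). DESeq2 gave 0 in each of these 4 cases, and limma-voom gave 0 apart from 1 rise with mivebresib.

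Single libraries carried weight in these counts. The 4 rises with romidepsin became 8 without control replicate 2 and 2 without control replicate 1, romidepsin replicate 1 or romidepsin replicate 2, and the 0 falls became 3 without control replicate 1 (COL4A1, COL4A2 and COL6A1). Its 2 rises past both thresholds became 0 without control replicate 1 or romidepsin replicate 1, and 1 without romidepsin replicate 2. For quisinostat, the 14 rises became 8 without quisinostat replicate 2, and without control replicate 1 the 2 falls became 4, the 7 rises past both thresholds became 4 and the 0 falls past both became 1. For mivebresib, the 3 rises became 0 without control replicate 1, mivebresib replicate 1 or mivebresib replicate 2, and 7 without control replicate 2, where 5 fell and 1 rise and 1 fall were past both thresholds.

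**Figure D2:**
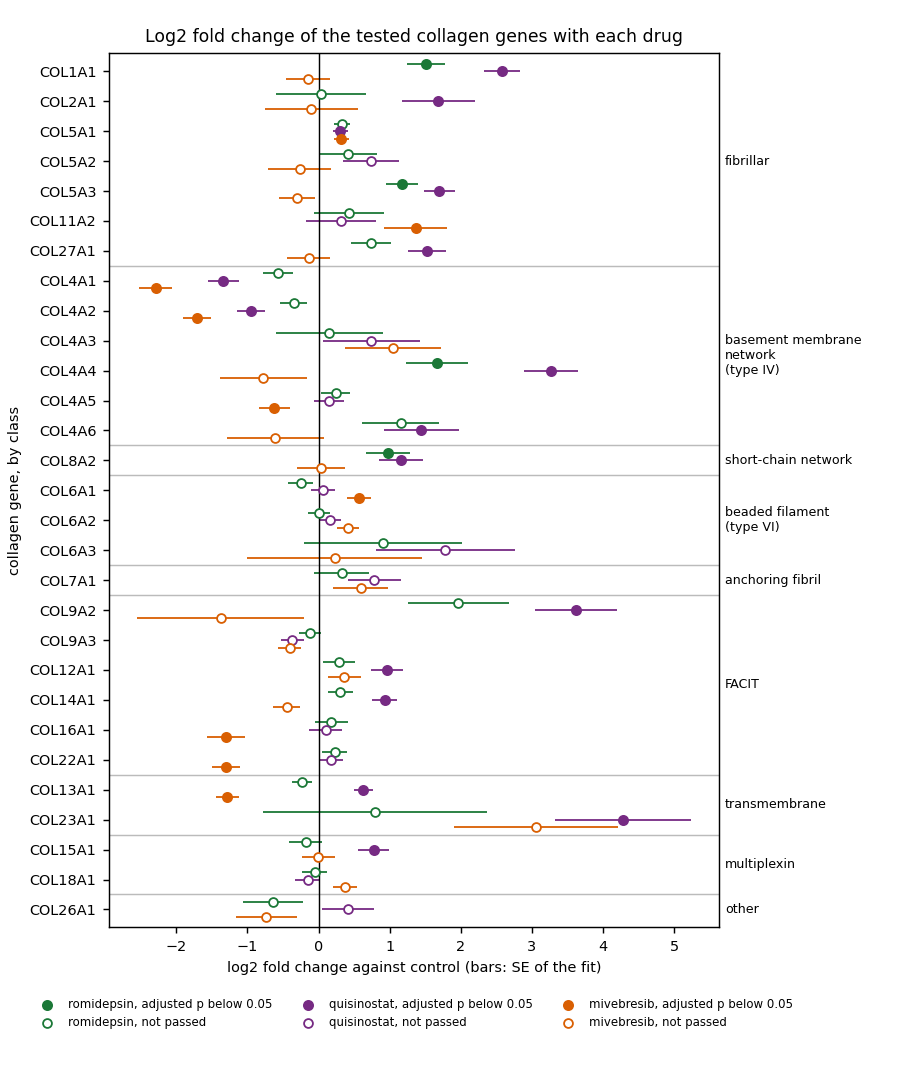
Log2 fold change against the control (horizontal axis, bars show the SE of the fit) of the 29 tested collagen genes by class, for romidepsin, quisinostat and mivebresib. Filled points passed an adjusted p of 0.05; COL4A1 and COL4A2 lie left of 0 with all 3 drugs, and COL4A4, COL5A3 and COL1A1 lie right of 0 with both HDAC inhibitors.

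Among the 11 fibrillar chains, 7 were tested, and both HDAC inhibitors raised COL1A1 and COL5A3. With quisinostat 5 of the 7 rose and the other 2 did not pass, with romidepsin 2 rose and 5 did not pass, and with mivebresib 2 rose and 5 did not pass. The class medians of the log2 FC were 1.52, 0.43 and -0.14 for the 3 drugs in that order, beside the medians over all tested genes given above.

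COL1A1 (chr17:50183289-50201632, minus strand) encodes the main chain of type I collagen. Its level was 1.42 and 1.64 CPM in the control, 4.91 and 3.79 with romidepsin, 10.4 and 7.99 with quisinostat, and 1.02 and 1.73 with mivebresib. Both quisinostat libraries were above both romidepsin libraries, which were above the control and mivebresib libraries, and the control and mivebresib libraries overlapped. COL1A1 rose 5.98-fold with quisinostat (log2 FC 2.58, SE 0.25, adjusted p = 6.77e-05) and 2.84-fold with romidepsin (log2 FC 1.51, SE 0.27, adjusted p = 0.00391). With mivebresib the log2 FC was -0.15, with a 95% interval of -0.86 to 0.56 and an adjusted p of 0.721, and its sign turned between alternatives, which ranged from -0.58 to 0.17. COL1A2, the other chain of type I collagen, had 0 to 4 counts in every library and was not tested. Over both libraries of a group, COL1A1 had 85 counts in the control, 253 with romidepsin, 578 with quisinostat and 76 with mivebresib, beside 5, 6, 5 and 1 counts of COL1A2. COL3A1, the type III chain often expressed together with type I and named here after its values were seen, had 0 to 4 counts per library. COL1A2 thus showed no rise in counts with quisinostat beside that of COL1A1. COL1A2 and COL3A1 had too few counts to be tested, so smaller changes in them were not assessed.

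Type V chains enter type I fibrils and limit their width. COL5A3 (chr19:9959561-10010471, minus strand) was at 1.95 and 2.89 CPM in the control, 6.15 and 4.75 with romidepsin, 8.14 and 7.55 with quisinostat, and 1.68 and 2.23 with mivebresib. The romidepsin and quisinostat libraries did not overlap with the control, and the mivebresib libraries did. It rose 3.25-fold with quisinostat (log2 FC 1.70, SE 0.22, adjusted p = 0.00031) and 2.26-fold with romidepsin (log2 FC 1.17, SE 0.23, adjusted p = 0.0058), while the log2 FC with mivebresib was -0.30 (adjusted p = 0.366). Of its exon bases, 4.0% overlap an antisense gene that has no row in the count table, and whether the counting used strand is not given in the sources used here.

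COL5A1, the chain found in most type V collagen, was at 15.4 and 19.0 CPM in the control and between 20.9 and 22.0 in all 6 drug libraries. Every drug library was above both control libraries, by little. The log2 FC was 0.33 with romidepsin (adjusted p = 0.0522), 0.31 with quisinostat (adjusted p = 0.0426) and 0.32 with mivebresib (adjusted p = 0.0417), so it rose with 2 of the drugs, and both calls were lost without control replicate 1, where the log2 FC was 0.16 and 0.18. Both were also lost with DESeq2, with no filter on low counts, with only the 4 libraries, and without either library of the drug concerned. COL5A2 had 10 to 29 counts per library and passed with none of the drugs, with adjusted p from 0.146 to 0.654. The ratio of COL5A3 to COL5A1 counts was 0.127 and 0.152 in the control, 0.28 and 0.224 with romidepsin, 0.386 and 0.351 with quisinostat, and 0.0804 and 0.101 with mivebresib.

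COL27A1 and COL2A1 are fibrillar collagens best known from cartilage. COL27A1 was at 1.63 and 2.45 CPM in the control, 3.23 and 3.58 with romidepsin, 5.57 and 6.11 with quisinostat, and 1.32 and 2.37 with mivebresib. Its romidepsin and quisinostat libraries were above both control libraries. It rose 2.87-fold with quisinostat (log2 FC 1.52, SE 0.27, adjusted p = 0.00159), while the log2 FC with romidepsin, 0.74, had an adjusted p of 0.0753. COL2A1 had 4 and 9 counts in the control, 9 and 5 with romidepsin, 17 and 31 with quisinostat, and 6 and 6 with mivebresib. It rose with quisinostat (log2 FC 1.69, SE 0.52, adjusted p = 0.0237), a call lost with DESeq2, without control replicate 1 (log2 FC 1.20) and without quisinostat replicate 2 (log2 FC 1.17). COL11A2, named here after its values were seen, is a type XI chain. It reached 10 counts in both libraries with mivebresib alone, so the filter limit given above applies to its rise. Its counts were 5 and 7 in the control against 18 and 13 with mivebresib. Its rise with mivebresib (log2 FC 1.36, adjusted p = 0.0328) was lost on leaving out any 1 of those 4 libraries, as well as with DESeq2, no filter, the replicate block and only the 4 libraries.

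**Figure D3:**
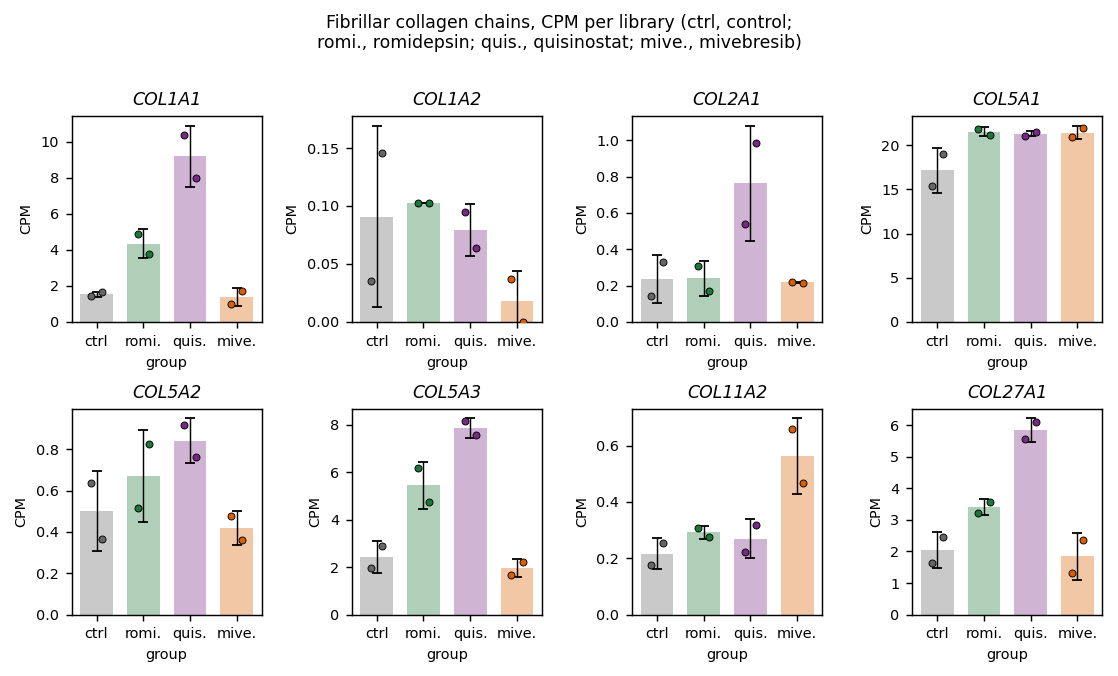
CPM of 8 fibrillar chain genes in each library (vertical axes, from 0 and scaled per gene). Points are libraries, bars are group means and error bars are the SD of 2 libraries. COL1A1 and COL5A3 step up from control to romidepsin to quisinostat, COL5A1 stays within 15.4 to 22.0 CPM, and COL1A2 stays at or below 0.146 CPM.

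All 6 type IV chains were tested, and they split by chain. COL4A1 and COL4A2, the pair of nearly all basement membranes, fell with quisinostat and fell furthest with mivebresib, while COL4A4 rose with both HDAC inhibitors. With quisinostat 2 rose, 2 fell and 2 did not pass, with romidepsin 1 rose and 5 did not pass, and with mivebresib 3 fell and 3 did not pass.

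COL4A1 (chr13:110148963-110307233, minus strand) was at 13.2 and 21.5 CPM in the control, 12.7 and 10.6 with romidepsin, 7.15 and 6.56 with quisinostat, and 3.8 and 3.27 with mivebresib. COL4A2 (chr13:110305812-110513209, plus strand) was at 61.7 and 93.8 CPM in the control, 66.8 and 55.5 with romidepsin, 36.5 and 43.9 with quisinostat, and 22.3 and 25.1 with mivebresib. For both genes the mivebresib libraries were the lowest pair and the quisinostat libraries the next, with no overlap with the control. Romidepsin libraries overlapped with the control for COL4A2, and for COL4A1 they lay just under the lower control library.

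With mivebresib, COL4A1 was 4.9-fold lower (log2 FC -2.29, SE 0.24, adjusted p = 0.000113) and COL4A2 3.28-fold lower (log2 FC -1.71, SE 0.20, adjusted p = 0.000206). With quisinostat, COL4A1 was 2.53-fold lower (log2 FC -1.34, SE 0.22, adjusted p = 0.00107) and COL4A2 1.93-fold lower (log2 FC -0.95, SE 0.19, adjusted p = 0.0033). These 4 calls held in every alternative checked, including without either control library. With romidepsin the log2 FC was -0.57 for COL4A1 (adjusted p = 0.0696) and -0.35 for COL4A2 (adjusted p = 0.195), and both passed without control replicate 1, at -0.86 and -0.59. In these bulk libraries, fewer cells expressing a gene and less RNA per cell cannot be told apart. Per kilobase of exon, with lengths joined over transcripts as above, COL4A1 was below COL4A2 in every library. The ratio was 0.281 and 0.3 in the control, 0.249 and 0.25 with romidepsin, 0.256 and 0.196 with quisinostat, and 0.223 and 0.171 with mivebresib.

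COL4A4 (chr2:227002711-227164453, minus strand) had 4 and 10 counts in the control, 22 and 25 with romidepsin, 67 and 88 with quisinostat, and 4 and 4 with mivebresib. The quisinostat libraries were highest, the romidepsin libraries came next, and the mivebresib libraries were level with the lower control library in counts. It rose 9.62-fold with quisinostat (log2 FC 3.27, SE 0.38, adjusted p = 0.000169) and 3.17-fold with romidepsin (log2 FC 1.66, SE 0.44, adjusted p = 0.0217). That second call was lost with only the 4 libraries, without either romidepsin library, and without control replicate 1, where the log2 FC was 1.16. With mivebresib the log2 FC was -0.78 (adjusted p = 0.327), and its sign turned between alternatives, from -1.31 to 0.03.

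The other chains of these type IV sets had a call each or none. COL4A3, which lies head to head with COL4A4, had 2 to 17 counts per library and passed with none of the drugs. With quisinostat its log2 FC was 0.74, with a 95% interval of -0.82 to 2.31. That interval includes 0 and lies below the interval of COL4A4, 2.40 to 4.13. A difference between the genes was not tested, and the log2 FC of COL4A3 ranged from -0.005 to 2.291 between alternatives. COL4A5 (chrX:108439844-108697545, plus strand) was at 13.5 and 21.6 CPM in the control, 22.0 and 19.5 with romidepsin, 18.1 and 20.6 with quisinostat, and 10.1 and 12.6 with mivebresib. Only its mivebresib libraries were below both control libraries. It fell with mivebresib (log2 FC -0.62, SE 0.21, adjusted p = 0.0414), a call lost with upper-quartile factors, limma-voom and only the 4 libraries, without either mivebresib library, and without control replicate 2, where the log2 FC was -0.25. COL4A6 had 7 and 10 counts in the control, 12 and 28 with romidepsin, 29 and 24 with quisinostat, and 3 and 8 with mivebresib. It rose with quisinostat (log2 FC 1.45, SE 0.52, adjusted p = 0.0446), a call lost with DESeq2, no filter, and on leaving out any 1 of the 4 libraries compared.

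**Figure D4:**
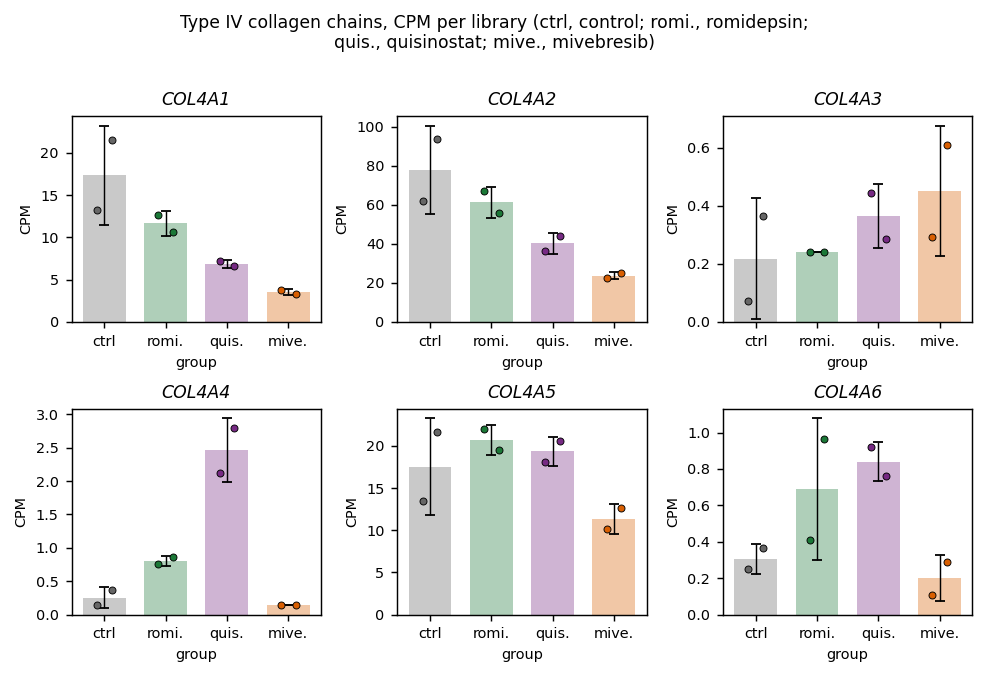
CPM of the 6 type IV collagen chains in each library (vertical axes, from 0 and scaled per gene). Points are libraries, bars are group means and error bars are the SD of 2 libraries. COL4A1 and COL4A2 step down from control to mivebresib, COL4A4 peaks with quisinostat at 2.12 and 2.8 CPM, and COL4A5 is lowest with mivebresib.

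The type IV genes lie in head-to-head pairs. Differences in response within a pair were not tested. RefSeq start sites (GRCh38.p14) of COL4A1 and COL4A2 are 127 bases apart on chromosome 13, those of COL4A4 and COL4A3 are 419 bases apart on chromosome 2, and the nearer starts of COL4A6 and COL4A5 are 380 bases apart on chromosome X. COL4A1 and COL4A2 both fell with quisinostat and with mivebresib. COL4A4 rose with both HDAC inhibitors, with values for COL4A3 that did not pass on its few counts. With mivebresib, COL4A5 and COL4A6 had log2 FC of nearly the same size, -0.62 and -0.61, of which the first passed and the second did not (adjusted p = 0.494). The interval of the second, on 3 and 8 counts, was -2.16 to 0.95. With quisinostat the values lay further apart, 0.15 for COL4A5 (adjusted p = 0.57) and 1.45 for COL4A6 (adjusted p = 0.0446).

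Promoter windows from RefSeq were matched for 32 of the 44 members. The stretches below are from the members that quisinostat raised past both thresholds and that had a window, and they are shown because these genes rose together. Each is the longest run within the 250 bases before the start site that touches no GENCODE exon, printed 5′ to 3′ on the gene's strand from GRCh38.p14. They lie at chr2:227164237-227164395 (minus strand, COL4A4), chr19:10010505-10010754 (minus, COL5A3), chr1:40317389-40317536 (minus, COL9A2), chr5:178590556-178590643 (minus, COL23A1) and chr9:114155287-114155536 (plus, COL27A1). The COL4A4 and COL9A2 stretches lie inside the GENCODE span of their own genes, which begins upstream of the RefSeq start used here. Capitals mark GGGCGG, the core of a GC box bound by SP factors, and CCAAT, each searched on both strands.
COL4A4: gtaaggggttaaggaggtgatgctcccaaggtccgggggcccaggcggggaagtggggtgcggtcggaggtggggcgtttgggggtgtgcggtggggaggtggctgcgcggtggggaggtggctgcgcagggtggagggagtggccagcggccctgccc
COL5A3: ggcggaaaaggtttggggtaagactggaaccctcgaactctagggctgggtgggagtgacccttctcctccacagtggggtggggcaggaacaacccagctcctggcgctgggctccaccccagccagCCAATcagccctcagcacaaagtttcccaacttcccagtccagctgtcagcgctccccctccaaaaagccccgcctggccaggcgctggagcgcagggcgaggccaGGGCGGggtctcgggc
COL9A2: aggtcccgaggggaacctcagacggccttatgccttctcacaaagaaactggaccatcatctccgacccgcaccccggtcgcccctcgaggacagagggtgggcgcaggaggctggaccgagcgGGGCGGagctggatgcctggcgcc
COL23A1: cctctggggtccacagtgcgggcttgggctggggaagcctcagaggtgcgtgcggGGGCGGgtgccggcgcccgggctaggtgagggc
COL27A1: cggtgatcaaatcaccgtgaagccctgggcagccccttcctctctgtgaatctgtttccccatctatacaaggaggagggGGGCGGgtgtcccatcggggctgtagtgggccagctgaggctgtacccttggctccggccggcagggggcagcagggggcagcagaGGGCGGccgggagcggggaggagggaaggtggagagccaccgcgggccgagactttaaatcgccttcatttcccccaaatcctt
GGGCGG on either strand was in 42.6% of all 35116 windows of 250 bases before a start, CCAAT in 32.0% and TATAAA in 10.7%. Over its full 250 bases, the COL4A4 window held none of these 3 motifs, COL5A3 held 1 GGGCGG and 1 CCAAT, COL9A2 held 3 GGGCGG, and COL23A1 and COL27A1 held 2 each. The overlapping windows of COL4A1 and COL4A2 held 2 and 1 GGGCGG and 1 CCAAT each, with 38 and 40 CpG dinucleotides against a median of 11 over all windows. A match describes the letters in these windows only, and no motif was found in all 5 of the windows from members that rose.

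The FACIT class had 10 members and 6 tested, of which quisinostat raised COL9A2, COL12A1 and COL14A1 and mivebresib lowered COL16A1 and COL22A1, while none of the 6 passed with romidepsin. COL9A2 (chr1:40300487-40317813, minus strand), a chain of the type IX collagen that coats cartilage fibrils, had 1 and 2 counts in the control, 6 and 7 with romidepsin, 23 and 22 with quisinostat, and 0 and 1 with mivebresib. Both quisinostat libraries exceeded all others, and the romidepsin libraries exceeded the control. It rose with quisinostat (log2 FC 3.62, SE 0.58, adjusted p = 0.00092). The ratio of summed counts, scaled by library size and TMM factor, was 13.2 with a 95% counting interval of 4.25 to 66.6. With romidepsin that ratio was 4.14 (1.14 to 22.7), and the log2 FC of 1.97 did not pass (adjusted p = 0.0672). Intervals of this kind cover counting error only.

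The partner chain COL9A3 was far more abundant. It was at 40.3 and 54.4 CPM in the control, 47.2 and 39.8 with romidepsin, 34.4 and 38.8 with quisinostat, and 32.4 and 39.1 with mivebresib. The quisinostat and mivebresib libraries were below both control libraries, but the log2 FC of -0.37 and -0.41 did not pass (adjusted p = 0.0824 and 0.0692). COL9A1 had 0 to 5 counts per library. COL9A3 shares 45 exon bases with TCFL5 on the opposite strand, under 1% of its exon length.

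COL12A1 (chr6:75084326-75206051, minus strand), a FACIT collagen of tissues under tension, was at 27.2 and 45.9 CPM in the control, 48.7 and 40.5 with romidepsin, 66.1 and 76.1 with quisinostat, and 40.8 and 53.1 with mivebresib. Only the quisinostat libraries were above all others. It rose 1.95-fold with quisinostat (log2 FC 0.96, SE 0.23, adjusted p = 0.00757), a call lost without quisinostat replicate 2 (log2 FC 0.84). The next 3 genes are named after their values were seen. COL14A1 rose with quisinostat from 64 and 75 counts to 150 and 150 (log2 FC 0.93, adjusted p = 0.00196). COL16A1 fell with mivebresib from 62 and 87 counts to 25 and 35 (log2 FC -1.30, SE 0.27, adjusted p = 0.00454), and COL22A1 from 92 and 97 counts to 33 and 43 (log2 FC -1.30, SE 0.20, adjusted p = 0.000888). For COL16A1 and COL22A1 the log2 FC with the HDAC inhibitors lay between 0.10 and 0.22 and did not pass.

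Of the 4 transmembrane collagens, 2 were tested, and the HDAC inhibitor quisinostat and the BET inhibitor mivebresib moved COL13A1 in opposite directions. COL13A1 (chr10:69801867-69964275, plus strand), named after its values were seen, is a cell-surface collagen known from the neuromuscular junction. It was at 5.24 and 5.88 CPM in the control, 4.81 and 4.65 with romidepsin, 8.07 and 9.14 with quisinostat, and 2.45 and 2.12 with mivebresib. The quisinostat libraries were the highest pair and the mivebresib libraries the lowest, with no overlap between any groups. It rose with quisinostat (log2 FC 0.63, SE 0.14, adjusted p = 0.00461), a call lost without quisinostat replicate 2 (log2 FC 0.53), and fell with mivebresib (log2 FC -1.28, SE 0.16, adjusted p = 0.000271).

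COL23A1 (chr5:178237618-178590555, minus strand), also a cell-surface collagen, had 0 and 1 counts in the control, 2 and 0 with romidepsin, 16 and 11 with quisinostat, and 4 and 6 with mivebresib. Both quisinostat libraries were highest, and both mivebresib libraries were above the control and romidepsin. It rose with quisinostat (log2 FC 4.28, SE 0.96, adjusted p = 0.00563), and the scaled ratio of summed counts against the single control count was 23.8, with a 95% counting interval of 3.93 to 976. With mivebresib the ratio was 10.1 (1.43 to 438), and the log2 FC of 3.06 did not pass (adjusted p = 0.0589). COL17A1 and COL25A1, the other two of the class, had at most 8 counts in a library.

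Type VI collagen, the beaded filament found around most cells, had 3 tested chains, of which mivebresib raised 1, while none passed with the HDAC inhibitors. COL6A1 (chr21:45981737-46005050, plus strand) was at 32.2 and 48.1 CPM in the control, 36.3 and 31.1 with romidepsin, 39.3 and 44.5 with quisinostat, and 57.5 and 61.3 with mivebresib. Both mivebresib libraries were above all other libraries. It rose 1.48-fold with mivebresib (log2 FC 0.57, SE 0.17, adjusted p = 0.0256), a call lost with only the 4 libraries, without either mivebresib library, and without control replicate 1, where the log2 FC was 0.31. COL6A2, its neighbour on chromosome 21, was at 42.5 and 59.5 CPM in the control and 68.1 and 67.5 with mivebresib, and its log2 FC of 0.41 did not pass (adjusted p = 0.0538). COL6A3, the third chain of the usual type VI molecule, had 0 to 13 counts per library and passed with none of the drugs. COL6A5 had 0 counts in every library and COL6A6 at most 3.

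The multiplexin COL18A1 (chr21:45405137-45513720, plus strand), the most abundant collagen gene of these cells, was at 99.1 and 147 CPM in the control, 124 and 113 with romidepsin, 101 and 120.0 with quisinostat, and 150.0 and 167 with mivebresib. The mivebresib libraries were above all others, and the groups of the HDAC inhibitors overlapped with the control. Its log2 FC was 0.37 with mivebresib (adjusted p = 0.111), -0.05 with romidepsin and -0.15 with quisinostat, and none passed. COL18A1 shares 1401 exon bases, 16.4% of its exon length, with SLC19A1 on the opposite strand, which had 250 to 632 counts per library, under the same limit on strand. COL15A1, the other multiplexin, rose with quisinostat from 45 and 46 counts to 99 and 78 (log2 FC 0.78, adjusted p = 0.0154), a call lost without quisinostat replicate 1 (log2 FC 0.61). This gene and the next 3 are named after their values were seen. COL8A2, a network-forming chain of the corneal endothelial membrane and the one tested member of the short-chain class, had 33 and 36 counts in the control, 80 and 62 with romidepsin, 76 and 99 with quisinostat, and 24 and 46 with mivebresib. Both HDAC inhibitors raised it, with a log2 FC of 0.97 for romidepsin (adjusted p = 0.0445) and of 1.16 for quisinostat (adjusted p = 0.012). The first call was lost with limma-voom, without control replicate 1 (log2 FC 0.91) and without either romidepsin library, and the second without quisinostat replicate 2 (log2 FC 0.94). COL7A1, the anchoring fibril chain, had 32 to 117 counts and COL26A1 had 6 to 21, and neither passed in a comparison with the control.

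Summed over all 44 genes, the drug libraries lay between the control libraries, which stood far apart, so a change in the total could be missed. The sums of some classes lay outside the control pair, and a shift between classes was not tested. The total was 370.0 and 542 CPM in the control, 476 and 416 with romidepsin, 437 and 494 with quisinostat, and 424 and 475 with mivebresib. Type IV chains summed to 88.9 and 138 CPM in the control and to 36.8 and 42.0 with mivebresib, the lowest pair. Fibrillar chains summed to 21.4 and 27.3 CPM in the control, 37.7 and 35.1 with romidepsin, 47.3 and 45.7 with quisinostat, and 26.3 and 29.5 with mivebresib. Type VI chains summed to 74.9 and 108 CPM in the control and 126 and 129 with mivebresib, and transmembrane chains to 5.28 and 5.95 CPM in the control, 8.61 and 9.78 with quisinostat, and 2.6 and 2.37 with mivebresib. For type VI, control replicate 2 lay much nearer the mivebresib libraries than control replicate 1 did. These sums are dominated by the few abundant genes of each class and carry no test.

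Compared directly, quisinostat and romidepsin at the same molar dose differed in size for several members. Against romidepsin, 10 of 29 tested members were higher with quisinostat and 2 were lower, beside 21.0% and 14.6% of all tested genes. COL1A1 was 2.11-fold higher (log2 FC 1.08, SE 0.22, adjusted p = 0.00642), COL4A4 3.03-fold higher (log2 FC 1.60, SE 0.31, adjusted p = 0.005) and COL13A1 1.82-fold higher (log2 FC 0.86, SE 0.14, adjusted p = 0.00206). The lower pair was COL4A1 (log2 FC -0.77, adjusted p = 0.0272) and COL4A2 (log2 FC -0.60, adjusted p = 0.0389). COL5A3 differed by a log2 FC of 0.52 with a 95% interval of 0.06 to 0.98, which did not pass after adjustment (adjusted p = 0.0742). The 10 became 5 and 3 without romidepsin replicates 1 and 2, and 2 and 4 without quisinostat replicates 1 and 2, and the 2 lower genes passed in none of these 4 fits. Among the genes named here, the call for COL1A1 was lost without romidepsin replicate 2 (log2 FC 0.90) or quisinostat replicate 1 (log2 FC 0.86), and that for COL4A4 without quisinostat replicate 2 (log2 FC 1.35).

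Mivebresib differed from both HDAC inhibitors, with more members lower than higher. Against romidepsin, 1 tested member was higher with mivebresib (COL6A1) and 14 were lower, beside 23.7% and 25.2% of all tested genes. Against quisinostat, 2 were higher (COL6A1 and COL18A1) and 18 were lower, beside 26.2% and 31.5%. Each comparison shares a group with the other and with those above. The differences from quisinostat were widest for COL4A4, 16.5-fold lower with mivebresib (log2 FC -4.04, SE 0.42, adjusted p = 7.47e-05), COL1A1, 6.64-fold lower (log2 FC -2.73, SE 0.26, adjusted p = 4.35e-05), and COL5A3, 4.0-fold lower (SE of the log2 FC 0.23, adjusted p = 0.000124), among members with more than 3 counts in every library of both groups. COL13A1 was 3.76-fold lower (log2 FC -1.91, SE 0.15, adjusted p = 1.72e-05), and for COL9A2, with 45 counts against 1, the scaled ratio of quisinostat to mivebresib was 39.4 with a counting interval of 6.72 to 1590.0. COL4A1 and COL4A2, which fell with quisinostat, were lower still with mivebresib, by a log2 FC of -0.95 (adjusted p = 0.0101) and -0.76 (adjusted p = 0.01). The call for COL4A1 was lost without mivebresib replicate 2 (log2 FC -0.84), and that for COL4A2 without quisinostat replicate 2 (log2 FC -0.61) or mivebresib replicate 1 (log2 FC -0.68). The 14 lower genes became 9 without romidepsin replicate 2 and 8 without mivebresib replicate 1, the 18 became 10 without mivebresib replicate 1, and the 2 higher became 1 without quisinostat replicate 2 and 0 without quisinostat replicate 1 or either mivebresib library.

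The 15 members below the filter include chains of most classes. They are COL1A2, COL3A1, COL11A1 and COL24A1 of the fibrillar class, COL8A1 and COL10A1 of the short-chain class, COL6A5 and COL6A6 of type VI, COL9A1, COL19A1, COL20A1 and COL21A1 of the FACIT class, the transmembrane COL17A1 and COL25A1, and COL28A1. Their highest count in any library was 16, for COL8A1 in quisinostat replicate 2, and 1 gene, COL6A5, had 0 counts in every library. These members were left out of the main test, so differences between groups were not assessed for them.

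Genes that modify, process and bind collagen were set beside the chains, from lists chosen with earlier results of these data known. The limit on genes that passed the filter through the group in which they were high holds for these lists and for the markers below. It concerns CREB3L1, ADAMTS3, GP6 and PECAM1, with single-digit counts in both control libraries. PDGFRB reached 10 counts in both libraries in the control alone. Of 21 genes for modification and folding in the endoplasmic reticulum, all tested, romidepsin raised 3 and lowered 1, quisinostat raised 4 and lowered 5, and mivebresib raised 4 and lowered 6. Over all tested genes the shares that rose and fell were 15.2% and 15.8%, 28.0% and 25.1%, and 22.2% and 24.1% for the same drugs. The median log2 FC of this list was 0.12, -0.03 and -0.02 in that order, against the medians over all genes given above. SERPINH1, the chaperone HSP47 that binds folded procollagen, was at 120.0 and 165 CPM in the control, 105 and 96.6 with romidepsin, 61.2 and 61.3 with quisinostat, and 55.4 and 64.3 with mivebresib. All 6 drug libraries were below both control libraries. It fell with all 3 drugs, by 0.50 with romidepsin (adjusted p = 0.0309), by 1.22 with quisinostat (adjusted p = 0.000198) and by 1.25 with mivebresib (adjusted p = 0.000218) on the log2 scale. The call with romidepsin was lost with library size alone, upper-quartile factors and only the 4 libraries, without either romidepsin library, and without control replicate 2, where the log2 FC was -0.25.

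Other folding genes moved one by one. CREB3L1, a transcription factor of the endoplasmic reticulum membrane that activates collagen genes in bone, had 3 and 2 counts in the control, 16 and 15 with romidepsin, 75 and 78 with quisinostat, and 4 and 3 with mivebresib. Romidepsin raised it (log2 FC 2.51, adjusted p = 0.0038), as did quisinostat (log2 FC 4.69, adjusted p = 1.61e-05), where the scaled ratio of counts was 27.0 with a counting interval of 11.3 to 84.4. P4HA3, a prolyl hydroxylase subunit, rose from 43 and 47 counts to 182 and 245 with quisinostat (log2 FC 2.06, adjusted p = 0.000545) and to 123 and 193 with mivebresib (log2 FC 1.82, adjusted p = 0.00146). TMEM38B, a channel of the endoplasmic reticulum, rose with quisinostat (log2 FC 0.85, adjusted p = 0.000286) and with mivebresib (log2 FC 1.63, adjusted p = 1.35e-05). Of the lysyl hydroxylases, PLOD2, whose product marks chains for stable crosslinks, rose 1.56-fold with romidepsin (adjusted p = 0.016) and 1.71-fold with mivebresib (adjusted p = 0.00404), the first call being lost with only the 4 libraries and without either romidepsin library. PLOD1 passed with none of the drugs, and PLOD3 fell with mivebresib alone (log2 FC -0.47, adjusted p = 0.0481), a call lost without control replicate 2 (log2 FC -0.16), without either mivebresib library and in 5 other alternatives.

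Of 13 genes for extracellular processing and crosslinking, 11 were tested. Romidepsin raised 2 and lowered 0, quisinostat raised 5 and lowered 2, and mivebresib raised 1 and lowered 3, against the same shares of all tested genes (15.2% and 15.8%, 28.0% and 25.1%, and 22.2% and 24.1%). The list's median log2 FC was 0.10, -0.04 and -0.16. ADAMTS2 and ADAMTS3, which cut the amino-terminal propeptide, rose with quisinostat (log2 FC 1.72, adjusted p = 0.000731, and log2 FC 3.80, adjusted p = 0.000815), ADAMTS3 from 2 and 7 counts to 81 and 65. ADAMTS3 also rose with romidepsin (log2 FC 2.16, adjusted p = 0.0443), a call lost with limma-voom, the replicate block, only the 4 libraries, without control replicate 1 (log2 FC 1.54) and without romidepsin replicate 2 (log2 FC 1.32). TLL2, of the family that cuts the carboxy-terminal propeptide, had 11 and 15 counts in the control, 38 and 38 with romidepsin, 182 and 221 with quisinostat, and 177 and 217 with mivebresib, and rose with all 3 drugs (log2 FC 1.47, 3.76 and 3.92). LOX, which crosslinks collagen and is named after its values were seen, was at 65.1 and 84.8 CPM in the control, 60.8 and 59.3 with romidepsin, 47.8 and 50.4 with quisinostat, and 30.2 and 28.8 with mivebresib. It fell with quisinostat (log2 FC -0.61, adjusted p = 0.00272) and with mivebresib (log2 FC -1.34, adjusted p = 5.84e-05), and the value with romidepsin, -0.32, did not pass (adjusted p = 0.0718).

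Of 11 collagen receptor genes, 8 were tested, GP6 among them under the filter limit given for these lists. Romidepsin raised 3 and quisinostat 4, and mivebresib lowered 2, where 15.2% and 28.0% of all tested genes rose with the first 2 drugs and 24.1% fell with mivebresib. The list's median log2 FC was 0.38, 0.72 and 0.25, beside -0.012, -0.0036 and 0.0067 over all tested genes. ITGA2, a collagen-binding integrin chain, was at 9.0 and 12.9 CPM in the control, 30.7 and 25.9 with romidepsin, 34.8 and 41.1 with quisinostat, and 16.0 and 14.5 with mivebresib. Both HDAC inhibitors raised it (romidepsin, log2 FC 1.37, adjusted p = 0.000794, and quisinostat, log2 FC 1.80, adjusted p = 6.01e-05), while the value with mivebresib, 0.48, did not pass (adjusted p = 0.0532). ITGA11 rose with quisinostat (log2 FC 1.84, adjusted p = 0.000257). GP6, a receptor known from platelets, had 4 and 3 counts in the control and 9 to 14 in the HDAC inhibitor libraries, and its calls (log2 FC 1.56 with romidepsin and 1.73 with quisinostat) were each lost on leaving out any 1 of the 4 libraries compared. The shared integrin chain ITGB1 passed with none of the drugs. DDR1 and DDR2, receptor tyrosine kinases for collagen, fell with mivebresib (log2 FC -0.999, adjusted p = 0.000674, and log2 FC -1.54, adjusted p = 0.000313), with DDR2 going from 208 and 322 CPM to 86.5 and 95.3. With the HDAC inhibitors their log2 FC lay between -0.25 and 0.32 and did not pass.

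**Figure D5:**
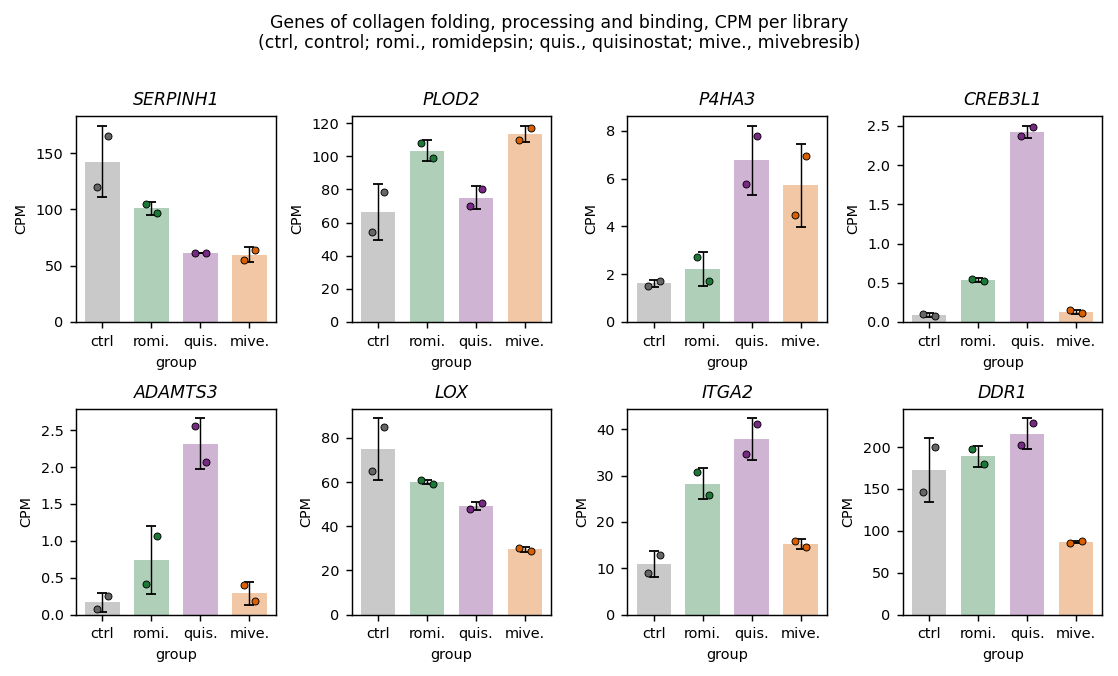
CPM of 8 genes of collagen folding, processing and binding in each library (vertical axes, from 0 and scaled per gene). Points are libraries, bars are group means and error bars are the SD of 2 libraries. SERPINH1 and LOX are lowest with mivebresib or quisinostat, CREB3L1 and ADAMTS3 peak with quisinostat, and DDR1 is lowest with mivebresib at 85.4 and 87.9 CPM.

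Markers of other cell types rich in collagen were checked beside these results. Of 8 fibroblast markers, DCN, LUM, THY1 and POSTN had at most 5 counts in every library, POSTN 0, whereas FAP, PDGFRA and FBLN1 were expressed. The summed fibroblast markers ran from 109 to 148 CPM in the control, 91.7 to 101 with romidepsin, 66.2 to 73.0 with quisinostat and 32.3 to 34.8 with mivebresib, most of it FAP, which fell with all 3 drugs. PDGFRA went the other way with quisinostat, where it rose (log2 FC 0.65, adjusted p = 0.0277), and fell with mivebresib (log2 FC -1.04, adjusted p = 0.00535), as did PDGFRB, which had 1 to 18 counts. This sum is lowest where COL4A1 and COL4A2 are lowest. Of 5 endothelial markers, CDH5 was at 0 in every library and the sum did not exceed 5.99 CPM, with KDR rising with both HDAC inhibitors and PECAM1, at 2 to 17 counts, rising with quisinostat (log2 FC 1.78, adjusted p = 0.0221). Melanocytic markers moved as well, with SOX10 falling with all 3 drugs, MITF and MLANA with quisinostat and mivebresib, and PMEL with mivebresib. The part of these markers in the collagen results was not tested.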

How the data were processed

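RNA-seq libraries were made by the submitters from MP38 cells, with 2 wells per group, using a strand-specific mRNA kit and paired-end reads. Raw read counts per gene symbol were deposited by the authors, who report running BioJupies, and hg38 is the build in the submitters' processing notes. The aligner and its gene annotation are not given in the sources used here. The deposited log-scale and quantile-normalized tables were not used. The groups were taken from the sample labels.

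From the counts, genes were kept by filterByExpr of edgeR 4.0.16 (R 4.3.3), scaled by TMM and fitted by quasi-likelihood in 1 model of all 8 libraries without covariates, and p-values were adjusted by Benjamini-Hochberg over 15085 genes for each of the 6 pairwise comparisons. The fits were tested on simulated data. The alternatives were library size alone, upper-quartile factors, DESeq2 1.42.0, limma-voom (limma 3.58.1), no filter, a filter on mean CPM (at least 1), fits of just the 4 libraries compared, a replicate block and each library left out in turn. Gene positions, exon lengths and overlaps were read from GENCODE 29 (GRCh38), and promoter windows from RefSeq.

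The members and all gene lists were chosen with earlier results of these data known. Members described in full are those past both thresholds in a drug comparison, the 8 most abundant in the control and the partner chains of either in the same collagen molecule. Of the accompanying lists, genes past both thresholds are named together with PLOD1, PLOD2, PLOD3, SERPINH1, DDR1, DDR2 and ITGB1. The untested members are listed by name, and markers come from the fixed marker lists. Other genes given with values are marked as chosen after those were seen. Counting intervals are exact 95% intervals from summed counts.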

Additional observations from a re-analysis of the deposited data

How the results depend on the processing

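No called single gene result changed direction in the alternatives checked for it, in which any left-out library belonged to the groups compared. For 121 single gene results there were 1424 checks, of which 1204 kept direction and call, 220 lost the threshold and 0 reversed. In every alternative checked 64 results held, and 90 held in every alternative that kept all libraries of the comparison's groups. The counts of called members moved more. When members needed 1 CPM on average, which tests fewer members, 9 rather than 14 rose with quisinostat, 3 rather than 7 were past both thresholds, 6 rather than 10 were higher with quisinostat than romidepsin, and 1 rather than 2 was raised past both thresholds by romidepsin, as also with limma-voom (1), no filter (1) and only the 4 libraries (1). For mivebresib, the 3 rises became 5 with limma-voom, 1 with no filter and 0 with only the 4 libraries, and limma-voom put 1 rise past both thresholds. The 2 members lower with quisinostat than romidepsin became 1 with library size alone and 1 with upper-quartile factors, and the 2 higher with mivebresib than quisinostat became 0 with library size alone and 0 with upper-quartile factors. The 1 higher with mivebresib than romidepsin became 2 with DESeq2, 2 with the replicate block and 3 with only the 4 libraries. The cause of these shifts was not tested, apart from the smaller set tested under the CPM minimum.

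Leaving out each library in turn gave, for romidepsin, 2 to 8 rises, 0 to 3 falls and 0 to 2 rises past both thresholds. For quisinostat it gave 8 to 17 rises, 2 to 4 falls, 4 to 7 rises past both thresholds and 0 to 1 falls past both. For mivebresib it gave 0 to 7 rises, 5 to 7 falls, and past both thresholds 0 to 1 rises and 1 to 3 falls. Between drugs, 2 to 5 members were higher and 0 lower with quisinostat than romidepsin, 8 to 15 were lower with mivebresib than romidepsin, and 10 to 14 were lower and 0 to 1 higher with mivebresib than quisinostat. A left-out library here always belonged to the groups compared. It leaves 1 library in its group, which is assumed to vary like the others.

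Library size alone shifted the median log2 FC of all genes to 0.2 for quisinostat against control, 0.19 for quisinostat against romidepsin and -0.21 for mivebresib against quisinostat, and upper-quartile factors to 0.13, 0.1 and -0.12. On library size alone, the fibrillar sum with quisinostat was 50.7 rather than 46.5 CPM, and the type VI sum with mivebresib 123 rather than 127. The labels give groups the same replicate numbers but no shared batch, and deviations of same-numbered libraries correlated at -0.162 to 0.158, so the numbers were not used as pairs. With the replicate block, 6 members rose and 0 fell with romidepsin, 14 and 2 with quisinostat, and 2 and 6 with mivebresib. Depth limits the 15 untested members and the tested ones with single-digit counts in both control libraries (COL2A1, COL6A3, COL9A2, COL11A2 and COL23A1). For these tested members the size of a change is known only within wide intervals.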
